A study of Macaca mulatta with 22 samples.

Results

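The passage of rhesus macaque embryos from morula to blastocyst was followed in 5 single embryos, 2 blastocysts (Bl-1 and Bl-2) and 3 morulae (Mo-1, Mo-2 and Mo-3), which are 5 of the 22 single oocytes and embryos of a series that runs from the germinal vesicle oocyte to the blastocyst. They were chosen by their stage label alone, and every gene or other feature with at least 1 RPKM in at least 2 of the 22 libraries was compared, 14312 of the 35468 in the table. RPKM is the number of reads per kilobase of transcript and per 1 M reads of the library. By the labels, both stages came from sperm injection into the oocyte followed by culture in vitro, with no treatment or genetic change, and the hours of culture are not stated. Each library was amplified from the lysate of 1 whole embryo. The labels name no animal or parent, so a p-value here sets a difference against the variation among embryos of unknown kinship.

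In the blastocyst the outer cells have become the trophectoderm, an epithelium that seals and inflates the cavity and later builds the placenta, while the inner cells give rise to the epiblast and the primitive endoderm. The morula is the compacted ball of cells before that separation. Just before it, around the 8-cell stage in macaques and humans, the embryonic genome is switched on with a short burst of homeobox, zinc finger and PRAME family genes, of which DUXA and ZSCAN4 are the best known. The comparison asks how much higher the trophectoderm and epithelial genes were in blastocysts, and how far that activation burst had ended.

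The whole-embryo libraries held an estimated 12.1 to 20.1 M reads. One morula stood apart: 6332 of the tested features were listed at 0 in Mo-2, against 1881 to 3609 in the other 4 libraries. On the log2(RPKM + 1) scale, Mo-2 correlated at 0.740 and 0.745 with the other morulae across features, which correlated at 0.952 with each other, and the 2 blastocysts correlated at 0.916. Of the 3876 features with at least 10 RPKM in a morula, 1038 were at least 4 times lower in Mo-2 than in both other morulae and 668 at least 4 times higher. The labels give no reason for this, so results are given with and without Mo-2. The sum of all RPKM values was 650643 in Bl-1, 387069 in Bl-2 and between 308742 and 492704 in the morulae. Most markers of cells that could have adhered to the embryo were low. Of 15 cumulus and granulosa cell markers, 11 were below 1 RPKM in all 5 libraries, and PTX3, AMH and FOXL2 were listed at 0 in all of them. The list's summed level was 11.05 and 50.62 RPKM in blastocysts, against 12.45, 52.97 and 4.43 RPKM in morulae, and GJA1 and NR5A2 were its most abundant members. GJA1, a gap junction gene, had 8.81 and 45.5 RPKM in blastocysts, against 2.93, 43.8 and 1.47 RPKM in morulae, and was not called with Mo-2 (adjusted p = 0.29) but was called higher without it (0.0028). Of 10 sperm markers 8, and of 10 blood and connective tissue markers 7, were below 1 RPKM in all 5 libraries, with the protamines PRM1 and PRM2 and the globins HBB and HBA1 listed at 0 in each. The sperm markers above that were ODF2 and TNP1, at up to 4.46 and 1.91 RPKM, both in Bl-2. The blood and connective tissue markers above it were PECAM1, at 17.8 RPKM in Mo-2, and LYZ and VWF, at up to 5.03 and 3.75 RPKM in Bl-2.

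In limma's fit over all 22 libraries, 1721 features were called higher in blastocysts, 12.02% of those tested, and 303 were called lower, 2.12%, at an adjusted p under 0.05. Without Mo-2 the calls were 1456 higher, 10.2%, and 443 lower, 3.10%. The median log2 change of all tested features was 0.23, and 0.13 without Mo-2. After median-of-ratios scaling, which brought that median to 0.07, 1469 were called higher and 660 lower, so the higher calls were 69.0% of all calls against 85.0% as deposited. Without Bl-1 there were 1050 higher and 99 lower calls. In 27.1% of features both blastocysts lay above all 3 morulae and in 5.81% both lay below, and a permutation of 3 against 2 single embryos cannot give an exact p under 0.1. The filter itself took in 605 features only through the blastocysts, with at least 1 RPKM in fewer than 2 other libraries, and 312 of these were among the higher calls. Such a feature could hardly enter the test without being higher in blastocysts, so its values are given as a description. Of the other 13707 features, 10.3% were called higher. Among the genes described, those taken in this way are ACTN1, ADM, ANXA3, CAPG, CAPN2, CLDN4, CLDN7, DLX5, DPPA4, ELF3, ESRP2, FXYD3, GATA2, GATA3, GDF15, GPX2, HEBP1, LEP, LRP2, MIR9-1HG, NDUFS8, NR2F2, PKP2, S100A13, TCF7L1, TEAD4, TFAP2A and VGLL1, and those listed as first detected in blastocysts.

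The 3 markers by which the blastocyst stage was checked were each far higher in both blastocysts. S100P, a calcium-binding protein of the S100 family abundant in human placenta (chr5:2109347-2112982, positions as deposited), had 1443 and 958 RPKM in blastocysts, against 0.796, 0 and 0.514 RPKM in morulae. It was the largest increase named here, with a log2 change of 9.72 ± 0.47 (SE) and an adjusted p of 1.6e-10. KRT18, the type I keratin of simple epithelia (chr11:50014162-50018234), had 1206 and 879.7 RPKM in blastocysts, against 6.79, 69.2 and 3.96 RPKM in morulae. Mo-2 was the high morula, and the log2 change was 6.21 ± 0.73 with it and 7.37 without it, with adjusted p of 1.1e-05 and 6.3e-09. GATA3, a zinc finger factor that drives trophoblast genes (chr9:8255784-8276002), had 15.9 and 21.2 RPKM in blastocysts, against 0.918, 0 and 0.042 RPKM in morulae. The groups did not overlap in S100P and KRT18, and both kept their calls when any 1 of the 5 libraries was left out. The same held for GATA3, but as a description only, since it had reached the filter only through the blastocysts. From the germinal vesicle oocyte to the 4-cell embryo no library exceeded 1.25 RPKM of S100P, 2.08 RPKM of KRT18 or 0.037 RPKM of GATA3.

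**Figure D1:**
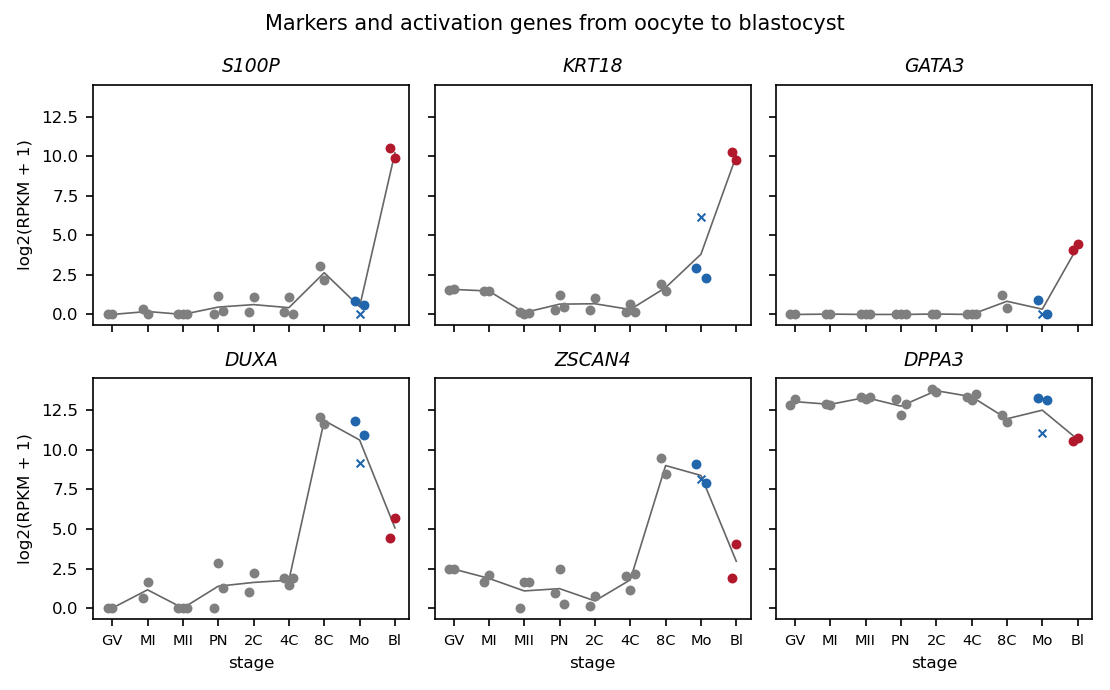
Levels of S100P, KRT18, GATA3, DUXA, ZSCAN4 and DPPA3 (vertical axis, log2(RPKM + 1)) in each of the 22 libraries by stage (horizontal axis, GV to Bl). Points are single oocytes or embryos, with blastocysts red, morulae blue and Mo-2 as a cross, and the line joins the stage means; the upper 3 genes are highest in both blastocysts, while DUXA and ZSCAN4 are high at 8C and Mo only.

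Of 38 regulators of trophectoderm listed, 29 were tested, 12 were called higher in blastocysts and 0 lower (14 and 0 at an unadjusted p under 0.05 in limma). That was 41.4% higher, beside 12.02% of all features, with a median log2 change of 0.96. Of the 12, 8 had reached the filter only through the blastocysts. Of the other 20 tested regulators, 4 were called higher, beside 10.3% of all features so chosen. Without Mo-2, 11 of the 29 were higher. VGLL1, a cofactor of the TEAD factors, had 63.1 and 34.8 RPKM in blastocysts, against 0.103, 0 and 0 RPKM in morulae. ELF3, an epithelial ETS factor, had 33.8 and 9.95 RPKM in blastocysts, against 0, 0 and 0.760 RPKM in morulae. GATA2, a relative of GATA3, had 9.70 and 10.998 RPKM in blastocysts and was listed at 0 in all 3 morulae. In all 3 genes the 2 stages were widely separated, but as a description only, since all had reached the filter only through the blastocysts. The table places the GATA2 entry on chromosome 11 and the RefSeq annotation places the gene on another chromosome, so that name is less certain.

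Other members were called at low levels. GRHL2, a Grainyhead factor of epithelia, had 4.00 and 4.45 RPKM in blastocysts and was listed at 0 in every morula. TFAP2A, an AP-2 factor, had 1.27 and 1.40 RPKM in blastocysts, against 0.375, 0 and 0 RPKM in morulae, and TEAD4, the DNA-binding partner of YAP1, had 1.33 and 0.842 RPKM, against 0.053, 0 and 0.143 RPKM. TEAD4 lost its call without Bl-1. CDX2, the classical trophectoderm factor of the mouse, was at the edge of detection, with 0.836 and 2.16 RPKM in blastocysts and 0 listed in the morulae. Its adjusted p was 0.033, and the call was lost without any one of the morulae (0.058 to 0.061) and without Bl-2 (0.29). The remaining called members were DLX5, VGLL4, GRHL1 and NR2F2, of which VGLL4, GRHL1 and NR2F2 lost their calls without Bl-2. The called regulators that had not reached the filter only through the blastocysts were CDX2, GRHL1, GRHL2 and VGLL4. Among these, only GRHL2 kept its call whichever library was left out.

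Several regulators were already present in morulae and did not pass the test. TFAP2C had 27.2 and 29.3 RPKM in blastocysts, against 32.6, 111 and 22.5 RPKM in morulae, and YAP1, the Hippo pathway's coactivator, had 3.32 and 9.25 RPKM, against 3.75, 13.3 and 3.48 RPKM. For both, the groups overlapped, and Mo-2 held the highest value. Of 14 tested partners and targets of the Hippo pathway, which holds YAP1 out of the nucleus in inner cells, 3 were called higher and 0 lower (6 and 1 at an unadjusted p under 0.05), 21.4% higher beside 12.02% of all features. AMOTL2, a YAP1-binding scaffold of junctions, had 8.06 and 14.2 RPKM in blastocysts, against 1.11, 0.021 and 1.16 RPKM in morulae. The kinase gene STK3 had 16.1 and 12.1 RPKM in blastocysts, against 3.11, 0.031 and 2.89 RPKM in morulae. PTPN14, a phosphatase gene, lost its call without any one of the 5 libraries (adjusted p = 0.055 to 0.24).

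Both keratins of the simple epithelial pair were far higher in blastocysts, while KRT18 was above KRT8 in every morula. KRT8, the type II partner of KRT18, had 1236 and 263 RPKM in blastocysts, against 0.072, 0 and 1.39 RPKM in morulae, with a log2 change of 8.70 ± 0.59 and an adjusted p of 1.7e-08. KRT19 was lower and less certain, with 19.2 and 42.9 RPKM in blastocysts, against 2.03, 20.3 and 8.77 RPKM in morulae. Its groups overlapped at Bl-1 and Mo-2, its adjusted p was 0.044, and it lost the call without Mo-1, Mo-3, Bl-1 or Bl-2 (0.052 to 0.35) and after scaling (0.27), while without Mo-2 the adjusted p was 0.0028. The other 3 of 6 tested keratins were not called.

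**Figure D2:**
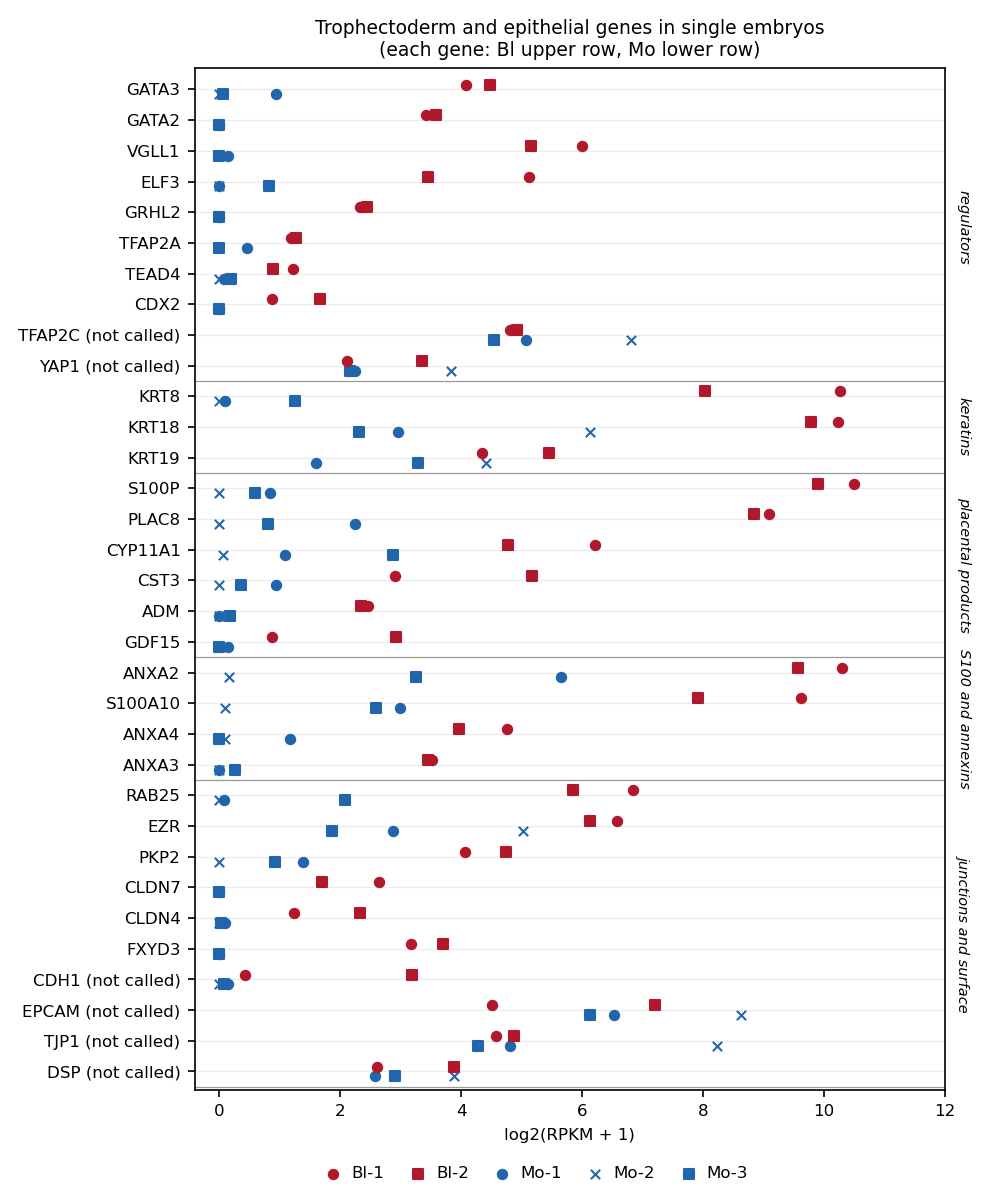
Levels of 33 trophectoderm and epithelial genes in single embryos (horizontal axis, log2(RPKM + 1)), with blastocysts in red above morulae in blue on each gene's line and Mo-2 as a cross. Called genes show blastocyst points to the right of the morula points except KRT19, whose groups overlap. The groups also overlap in TFAP2C, YAP1, EPCAM, TJP1 and DSP, which were not called.

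Of 29 tested junction genes, 9 were called higher and 1 lower in blastocysts, or 31.0% and 3.45% beside 12.02% and 2.12% of all features, with a median log2 change of 0.67. Without Mo-2 the counts were 11 and 0, and without Bl-2 they were 5 and 3 with a median of 0.03. The called members were mostly desmosome and claudin genes. PKP2, a plaque protein of desmosomes, had 15.6 and 25.8 RPKM in blastocysts, against 1.61, 0 and 0.897 RPKM in morulae. JUP, plakoglobin, which desmosomes and adherens junctions share, had 10.96 and 10.4 RPKM in blastocysts, against 0.054, 2.50 and 0.719 RPKM in morulae. The claudin gene CLDN7 had 5.26 and 2.23 RPKM in blastocysts and was listed at 0 in all morulae, and CLDN4 had 1.36 and 4.00 RPKM, against 0.066, 0 and 0.015 RPKM. In these 4 genes the stages did not overlap, but PKP2, CLDN7 and CLDN4 had reached the filter only through the blastocysts.

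The long-established adhesion genes did not pass the test. CDH1, E-cadherin, had 0.341 and 8.12 RPKM in blastocysts, against 0.099, 0 and 0.056 RPKM in morulae, so that the groups did not overlap but the blastocysts differed more from each other than Bl-1 did from the morulae (adjusted p = 0.095). EPCAM, an epithelial adhesion molecule, had 21.8 and 147 RPKM in blastocysts, against 91.4, 398 and 68.9 RPKM in morulae. The tight junction scaffold gene TJP1 had 23.0 and 28.2 RPKM in blastocysts, against 26.9, 299 and 18.4 RPKM in morulae, and desmoplakin, DSP, had 5.13 and 13.8 RPKM, against 4.96, 13.7 and 6.46 RPKM. In these 3 genes the groups overlapped. PERP, a tetraspan protein of desmosomes, lost its call without Bl-2 (adjusted p = 0.17), while NECTIN4, an adhesion gene at 1.45 and 1.85 RPKM in blastocysts and listed at 0 in all morulae, kept it under each library left out. The 1 junction gene called lower was CLDN12, which lost the call without Mo-1, Mo-2 or Bl-1.

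Genes of the apical domain and cell polarity showed 9 higher and 1 lower among 29 tested, or 31.0% and 3.45% beside 12.02% and 2.12% of all features, with a median log2 change of 0.74. RAB25, a GTPase of apical recycling vesicles, had 114 and 56.5 RPKM in blastocysts, against 0.056, 0 and 3.20 RPKM in morulae, a log2 change of 5.63 ± 0.63 with an adjusted p of 6.4e-06. EZR, ezrin, which ties actin to microvilli, had 94.1 and 69.0 RPKM in blastocysts, against 6.36, 31.6 and 2.65 RPKM in morulae. Both genes were separated between the stages. MYO6, TAGLN2, CAPN2 and the epithelial splicing factor gene ESRP2 were also called under every library left out. Of these, CAPN2 and ESRP2 had reached the filter only through the blastocysts. The other called genes were less certain. CRB3, a polarity gene, had 2.82 and 3.22 RPKM in blastocysts, against 0.592, 0 and 0.670 RPKM in morulae. Its adjusted p in limma was 0.049, and it lost the call whichever library was left out. ACTN4 and TMSB10 lost their calls without Bl-1. The polarity genes PARD3, PARD6B and PRKCI were not called. PALS1, a polarity scaffold, was the 1 lower gene, with 5.62 and 7.92 RPKM in blastocysts, against 20.9, 90.9 and 23.5 RPKM in morulae, and lost its call without Bl-1.

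Of 13 tested transport genes, some of which pump fluid into the cavity, 1 was called higher and 1 lower, 7.69% each beside 12.02% and 2.12% of all features. FXYD3, a small regulator of the sodium pump, had 7.97 and 12.1 RPKM in blastocysts and was listed at 0 in all morulae. It had reached the filter only through the blastocysts, so this is a description only. Of the 11 tested transport genes not taken in that way, 0 were called higher, beside 10.3% of all features so chosen. ATP1B3, a beta subunit of that pump, had 8.48 and 42.6 RPKM in blastocysts, against 101, 115 and 71.5 RPKM in morulae, and lost its call without Bl-1 (adjusted p = 0.37). The water channel gene AQP3 was below the filter, with 0 listed in both blastocysts and at most 0.462 RPKM in a morula.

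Among placental products, 21 of 39 were tested, and 10 were called higher and 0 lower (10 and 1 at an unadjusted p under 0.05). That was 47.6% higher, beside 12.02% of all features, with a median log2 change of 1.05. Of the 21, 4 had reached the filter only through the blastocysts, among them the called ADM, GDF15 and NR2F2. Of the other 17 tested, 7 were called higher, 41.2% beside 10.3% of all features so chosen. PLAC8, a cysteine-rich protein named for its placental expression, had 545 and 457 RPKM in blastocysts, against 3.72, 0 and 0.756 RPKM in morulae, a log2 change of 7.95 ± 0.64 with an adjusted p of 1.4e-07. CYP11A1, the enzyme that opens steroid hormone synthesis from cholesterol, had 73.7 and 26.3 RPKM in blastocysts, against 1.13, 0.041 and 6.34 RPKM in morulae. The secreted peptide gene ADM, adrenomedullin, had 4.50 and 4.09 RPKM in blastocysts, against 0, 0 and 0.129 RPKM in morulae. CST3, cystatin C, and GDF15, a TGF-beta family hormone, were also called under every library left out. All 5 genes were separated between the stages, for ADM and GDF15 as a description only.

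The chorionic gonadotropin subunit gene CGA followed another course, with 73.9 and 33.7 RPKM in the 8-cell embryos, 1.91, 0 and 0 RPKM in the morulae and 0 listed in both blastocysts. The gonadotropin beta gene CGB (IMMRNTR1186) was listed at 0 in all 7 of these libraries. PGF and HSD3B1 (IMMRNTR2068) were below the filter. LEP, the gene of the hormone leptin, which is also made by placenta, was not on the list and was chosen after its values were seen: it had 29.1 and 107 RPKM in blastocysts, against 0.253, 0 and 0 RPKM in morulae.

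The S100 and annexin genes, which encode calcium-binding proteins of membranes and cell cortex, had the largest median log2 change of the trophectoderm and epithelial lists, 2.09. Of 18 tested, 8 were higher and 0 lower (12 and 0 at an unadjusted p under 0.05), and 10 were higher without Mo-2. The 8 higher calls were 44.4% of those tested, beside 12.02% of all features. Of the 18, 3 had reached the filter only through the blastocysts, among them the called ANXA3 and S100A13. Of the other 15 tested, 6 were called higher, beside 10.3% of all features so chosen. ANXA2 had 1263 and 759.8 RPKM in blastocysts, against 49.5, 0.121 and 8.55 RPKM in morulae, a log2 change of 6.91 ± 0.93 that was 5.48 without Mo-2. S100A10, its binding partner, had 788 and 241 RPKM in blastocysts, against 6.90, 0.070 and 5.04 RPKM in morulae. Both had been higher at 8C than in any morula, at 206 and 113 RPKM for ANXA2 and 109 and 33.2 RPKM for S100A10. ANXA4 and S100A14 (IMMRNTR1855) were called under every library left out, as were ANXA3 and S100A13, for these as a description only. S100A6 lost its call without Bl-1.

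Over the 7 trophectoderm and epithelial lists together, 216 genes, 143 were tested, 50 were called higher and 3 lower, or 35.0% and 2.1%, beside 12.02% and 2.12% of all features. Of the 50, 18 had reached the filter only through the blastocysts, and of the other 120 tested genes 32 were called higher, 26.7% beside 10.3% of all features so chosen. Of the 50, 35 kept their call whichever library was left out. After median-of-ratios scaling 45 were higher and 5 lower. These are whole embryos, so more cells of a type and more RNA per cell cannot be told apart.

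**Figure D3:**
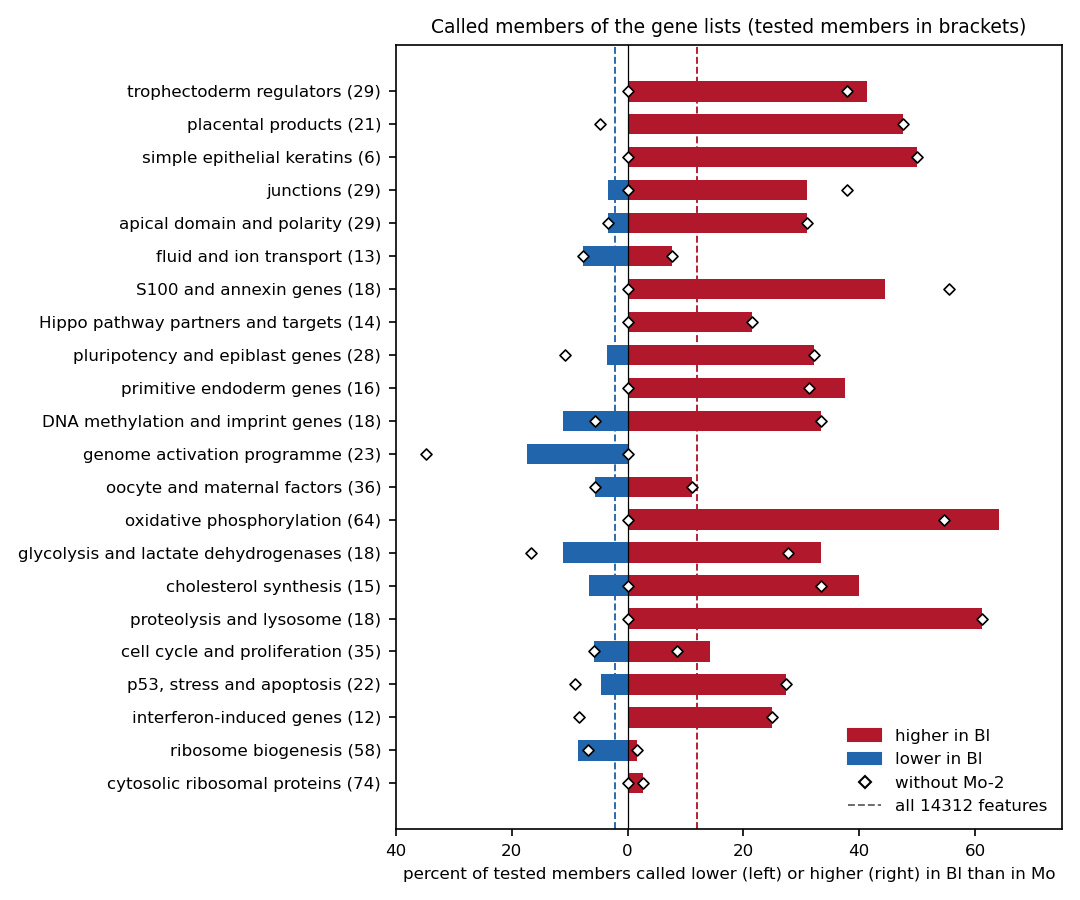
Share of the tested members of 22 gene lists called higher (red, right) or lower (blue, left) in blastocysts than in morulae, in percent, with the number tested in brackets. Diamonds give the shares without Mo-2 and dashed lines the shares over all 14312 features, 12.02% higher and 2.12% lower; oxidative phosphorylation and lysosomal genes have the largest shares of higher calls, and the activation programme has the largest share of lower calls.

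The genes whose levels over all 22 libraries were most like the 3 markers were found by Pearson's correlation of log2(RPKM + 1), which the 2 blastocysts dominate. For GATA3 they included HEBP1 (0.99), ACTN1 and S100P (0.98 each) and TCF7L1 (0.974). HEBP1, a heme-binding protein, had 20.9 and 43.6 RPKM in blastocysts, against 0.167, 0 and 0 RPKM in morulae, and ACTN1, an actin crosslinker, had 3.97 and 3.38 RPKM, against 0.437, 0.118 and 0.326 RPKM. For S100P they were GATA3, HEBP1, ANXA3, MIR9-1HG and DPPA4, at 0.97 to 0.98. For KRT18 they were CHDH, TTLL12, BCAT1, SERPINB9 and ARMH3, at 0.945 to 0.958. SERPINB9, an inhibitor of granzyme B, had 18.3 and 31.3 RPKM in blastocysts, against 1.19, 1.58 and 0.192 RPKM in morulae. The other 4 of the KRT18 group lost their calls after median-of-ratios scaling (adjusted p = 0.053 to 0.085), and TTLL12, BCAT1 and ARMH3 also with a pseudocount of 0.1 (0.13 to 0.20).

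There were 11 features below 0.5 RPKM in every oocyte and embryo library before the blastocyst and at least 5 RPKM in both blastocysts. Besides VGLL1 and GATA2 these were the actin-capping gene CAPG, with 59.7 and 16.1 RPKM in blastocysts, the peptide transporter gene SLC15A2, the heparan sulfate proteoglycan gene SDC4, the myosin light chain genes MYL7 and MYL9, the natriuretic peptide gene NPPB, MRPL23, FYB1 and IMMRNTR1925. MYL9 had 9.84 and 19.4 RPKM in blastocysts and NPPB had 23.7 and 6.63 RPKM, and both were listed at 0 in all 3 morulae. Without the condition on earlier stages, 68 features were below 0.5 RPKM in every morula and at least 5 RPKM in both blastocysts. The reverse held for only 4, RBM44, ABCB1, ENO2 and BOLA3-AS1 (IMMRNTR6099). ENO2, neuronal enolase, had 0 and 0.04 RPKM in blastocysts, against 6.93, 6.98 and 5.22 RPKM in morulae.

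Among the features with the largest increases were genes outside these lists. ATP6V0D2, a subunit of the proton pump of acidic vesicles, had 162 and 58.4 RPKM in blastocysts and was listed at 0 in all morulae (adjusted p = 1.3e-06). The metallothionein gene MT2A had 5177 and 1285 RPKM in blastocysts, against 19.3, 0.230 and 37.3 RPKM in morulae, and moved to rank 13 of all features in blastocysts, against rank 2133 in morulae. MT1E had 1098 and 413 RPKM in blastocysts, against 0.189, 2.93 and 1.23 RPKM in morulae. Metallothionein genes are near-identical, so reads could be split between them. FABP4, a fatty acid-binding protein, had 572 and 232 RPKM in blastocysts, against 1.49, 0 and 0.830 RPKM in morulae. Its entry lies on another chromosome than in the RefSeq annotation, and 2 entries bear the name. LY6G6C and 2 of the 5 entries named IFITM3 completed the 12 largest increases with S100P, KRT8, PLAC8, ANXA2 and S100A10.

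The end of the activation programme was uneven. Of 48 genes listed, 25 were matched and 23 tested, 4 were called lower in blastocysts and 0 higher (8 and 3 at an unadjusted p under 0.05), or 17.4% beside 2.12% of all features, with a median log2 change of -0.56. Without Mo-2, 8 were lower, and after scaling 6 were lower and 1 higher. DUXA, a double homeobox factor (chr19:63011895-63017246), had 20.3 and 51.7 RPKM in blastocysts, against 3571, 565 and 1923 RPKM in morulae. Its log2 change was -5.55 ± 0.75 with an adjusted p of 4.7e-05, and -6.29 without Mo-2. ZSCAN4, a zinc finger gene of early embryos (chr19:63486166-63489062), had 2.69 and 15.4 RPKM in blastocysts, against 550.1, 283 and 235 RPKM in morulae, a log2 change of -5.42 ± 0.71. CCNA1, cyclin A1, had 2.40 and 5.57 RPKM in blastocysts, against 107, 145 and 82.2 RPKM in morulae. These 3 were separated by a wide margin and kept their calls without any one library.

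Other activation genes were closer between the stages and were not called. ARGFX, a homeobox gene, had 582 and 129 RPKM in blastocysts, against 2499, 479.5 and 2322 RPKM in morulae. Only Mo-2 lay within the blastocyst range, and the adjusted p was 0.080 with it and 0.016 without it. DPRX (IMMRNTR1323), another homeobox gene, had 1241 and 478 RPKM in blastocysts, against 3954, 1148 and 1943 RPKM in morulae, with an adjusted p of 0.32, or 0.19 without Mo-2. KHDC1L, a KH domain gene, had 609 and 221 RPKM in blastocysts, against 1617, 627 and 1638 RPKM in morulae, with an adjusted p of 0.11, or 0.042 without Mo-2. These genes were thus still at over 100 RPKM in both blastocysts, as was TRIM60, at 137 and 122 RPKM in blastocysts and 140.2, 275 and 182 RPKM in morulae. TMEM92, the fourth called gene, had 15.1 and 5.25 RPKM in blastocysts, against 116, 11.4 and 85.9 RPKM in morulae, overlapped at Mo-2 and lost its call without Mo-1, Mo-3 or Bl-2 (adjusted p = 0.066 to 0.24).

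A second set of activation genes was high in the 8-cell embryos and already low in morulae. LEUTX (IMMRNTR1244), a homeobox gene, had 805 and 1528 RPKM in the 8-cell embryos, 23.6, 0.170 and 6.40 RPKM in morulae and 17.2 and 1.91 RPKM in blastocysts. RFPL4B had 1181 and 1293 RPKM in the 8-cell embryos, 13.2, 0.249 and 7.41 RPKM in morulae and 10.2 and 7.91 RPKM in blastocysts. PRAMEF10, of the PRAME family, had 182 and 296 RPKM in the 8-cell embryos, 3.30, 0 and 2.86 RPKM in morulae and 6.87 and 1.08 RPKM in blastocysts. TRIM49, KLF17, USP17L2, SLC34A2 and KDM4E (IMMRNTR844) were likewise higher in both 8-cell embryos than in any morula or blastocyst. These genes were not called between morulae and blastocysts, except KLF17 without Mo-2 (adjusted p = 0.0079). The genes named in these paragraphs beyond the panel were chosen after their values were seen.

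**Figure D4:**
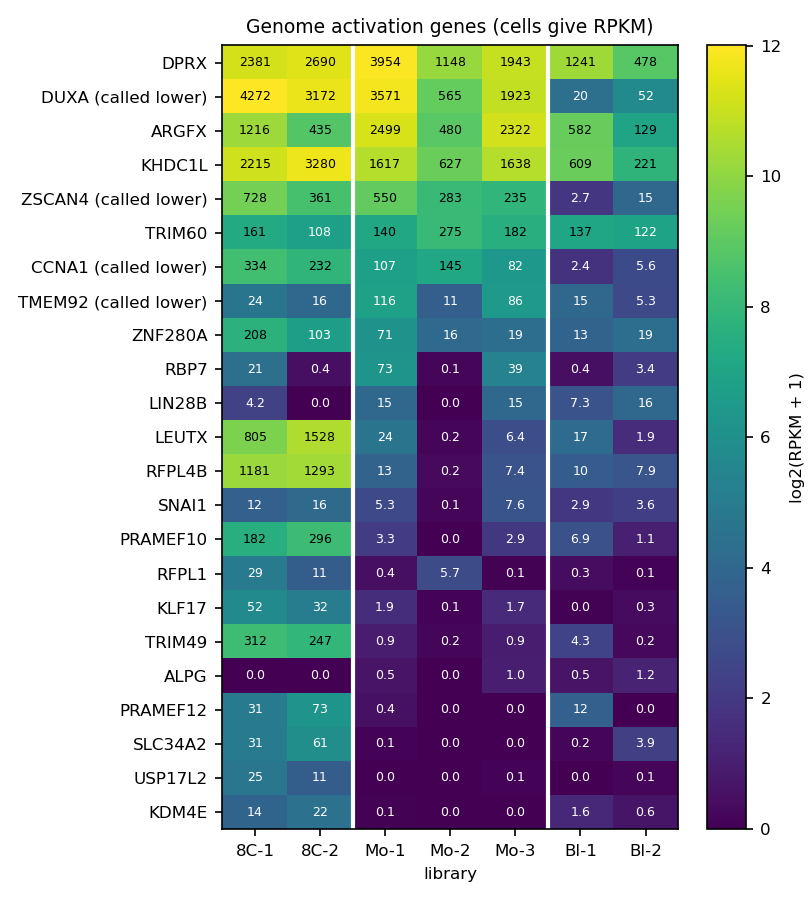
Levels of the 23 tested activation genes (rows, ordered by their mean in morulae) in the 8-cell embryos, morulae and blastocysts (columns), with colour giving log2(RPKM + 1) and the printed number RPKM. DUXA, ZSCAN4 and CCNA1 are high through the morula and low in both blastocysts, DPRX, ARGFX, KHDC1L and TRIM60 are above 100 RPKM in all 7 libraries, and LEUTX, RFPL4B, TRIM49 and PRAMEF10 are high at 8C only.

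Besides DUXA, ZSCAN4 and CCNA1, the 12 largest decreases held 9 genes outside the activation list. ZIM3, a KRAB zinc finger gene, had 1.10 and 12.9 RPKM in blastocysts, against 216, 247 and 196 RPKM in morulae, with an adjusted p of 3.1e-06. GIP, the gene of an incretin hormone of the gut, had 0.115 and 2.15 RPKM in blastocysts, against 414, 42.6 and 16.6 RPKM in morulae. TMEM45A, a membrane protein gene, was highest in morulae, with 4.999 and 43.1 RPKM in blastocysts, 225, 275 and 591 RPKM in morulae and 0.579 and 1.45 RPKM in the 8-cell embryos. SLC16A1, a carrier of lactate and pyruvate, had 8.44 and 47.2 RPKM in blastocysts, against 304, 1030.0 and 225 RPKM in morulae. YPEL5 had been high since the oocyte, at 444 to 2341 RPKM up to the 4-cell stage, and had 39.0 and 55.7 RPKM in blastocysts, against 683, 2686 and 549 RPKM in morulae. CFAP97, ZSCAN5A, RHEBL1 and ETNPPL completed the 12, and ETNPPL lost its call without Bl-1 (adjusted p = 0.064).

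Of 36 tested oocyte and maternal genes, 4 were called higher in blastocysts and 2 lower, 11.1% and 5.56%, so that the share of higher calls was near the 12.02% of all features. BTG4, an adaptor of mRNA decay in the oocyte, had 14.4 and 5.21 RPKM in blastocysts, against 15.3, 3.37 and 27.3 RPKM in morulae. The 4 higher genes included 3 that encode proteins linked to the maternal complex under the egg membrane. Other genes of that complex on the list, NLRP5, OOEP, TLE6 and PADI6, were not called. NLRP2 had 457 and 304 RPKM in blastocysts, against 42.1, 57.4 and 42.2 RPKM in morulae, a log2 change of 2.97 ± 0.46. NLRP7 had 247 and 163 RPKM in blastocysts, against 21.6, 57.0 and 30.0 RPKM in morulae. KHDC3L had 380 and 132 RPKM in blastocysts, against 6.35, 0.479 and 8.40 RPKM in morulae, and lost its call without Bl-1 (adjusted p = 0.082). SOHLH2 was the fourth. Up to the 4-cell stage NLRP2 ranged from 35.1 to 238 RPKM and NLRP7 from 5.78 to 43.4 RPKM, so both blastocysts lay above every earlier library. DPPA3 (IMMRNTR2887), a maternal factor that protects methylation in the zygote, had 1525 and 1706 RPKM in blastocysts, against 9943, 2158 and 9082 RPKM in morulae. It was called lower (adjusted p = 0.016) but lost the call without Mo-1, Mo-3, Bl-1 or Bl-2 (0.050 to 0.11), and its log2 change was -1.85 with Mo-2 and -2.56 without it. AURKC, a meiotic kinase gene, was the other lower gene.

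Of 28 tested pluripotency and epiblast genes, 9 were called higher, 1 lower and 18 neither, or 32.1% higher and 3.57% lower beside 12.02% and 2.12% of all features, with a median log2 change of 0.68. The core factor genes did not pass the test: NANOG had 130.5 and 48.5 RPKM in blastocysts, against 144, 107 and 101 RPKM in morulae, and POU5F1 had 9.72 and 15.5 RPKM, against 5.10, 43.9 and 9.48 RPKM. SOX2 was below the filter in this table. DNMT3B, a de novo DNA methyltransferase, had 121 and 105 RPKM in blastocysts, against 4.13, 0.099 and 2.70 RPKM in morulae, a log2 change of 5.37 ± 0.68 with an adjusted p of 2.2e-05. Its cofactor gene DNMT3L had 231 and 84.1 RPKM in blastocysts, against 23.0, 14.7 and 33.8 RPKM in morulae, and lost its call with a pseudocount of 0.1 (adjusted p = 0.075). DPPA2, a chromatin factor of pluripotent cells, had 542 and 306 RPKM in blastocysts, against 37.7, 0.043 and 16.4 RPKM in morulae. The T-box factor gene TBX3 had 5.11 and 7.28 RPKM in blastocysts and was listed at 0 in all morulae. The 1 lower gene was L1TD1, an RNA-binding protein of pluripotent cells, with 115 and 108 RPKM in blastocysts, against 552, 701 and 577 RPKM in morulae.

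Primitive endoderm genes differed between the 2 blastocysts. Of 16 tested, 6 were called higher and 0 lower than in morulae (8 and 1 at an unadjusted p under 0.05). That was 37.5% higher, beside 12.02% of all features. Of the 6, 3 had reached the filter only through the blastocysts. Of the other 13 tested, 3 were called higher, 23.1% beside 10.3% of all features so chosen. Without Bl-2, 4 of the 16 were higher and 1 lower, with a median log2 change of 0.01. Bl-1 was above Bl-2 in 1 of the 16, GATA6, or 6.25%, beside 35.4% of all tested features. LRP2, megalin, an endocytic receptor of that lineage, had 1.09 and 35.9 RPKM in blastocysts, against 0.020, 0 and 0 RPKM in morulae. The laminin genes LAMB1 and LAMC1, which encode chains of its basement membrane, had 1.48 and 41.1 RPKM and 2.52 and 24.9 RPKM in blastocysts, and in morulae at most 1.59 and 0.997 RPKM. LAMB1 in Bl-1 was within the morula range, and both lost their calls without Bl-2 (adjusted p = 0.91 and 0.13), LAMB1 also without Mo-2 (0.12). GPX2, a glutathione peroxidase, had 3.35 and 26.6 RPKM in blastocysts and was listed at 0 in all morulae. DAB2, an adaptor protein that binds megalin, was also called, with 37.8 and 73.1 RPKM in blastocysts, against 12.9, 0.025 and 6.39 RPKM in morulae. The lineage factor GATA6 had 8.42 and 5.24 RPKM in blastocysts, against 3.32, 0 and 3.09 RPKM in morulae (adjusted p = 0.051), and PDGFRA had 9.21 and 12.7 RPKM, against 11.2, 88.6 and 5.32 RPKM. GATA4 and SOX17 were below the filter, at up to 0.437 and 0.854 RPKM in Bl-2.

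Other lists also differed between the blastocysts. Among all features with at least 5 RPKM in a blastocyst, 5467 in number, Bl-2 was at least 4 times Bl-1 in 549 and Bl-1 at least 4 times Bl-2 in 363. Bl-2 was that much higher in 6 of 10 primitive endoderm genes, 10 of 22 junction genes, 9 of 14 lysosomal genes and 3 of 9 placental products, with none the other way round, and in 3 of 5 transport genes with 1 the other way round. It was 0 of 9 in both directions for trophectoderm regulators. In oxidative phosphorylation, 63 of 64 tested genes were higher in Bl-1, 98.4% beside 35.4% of all tested features. With 1 library per embryo, these are differences between 2 single embryos, and their cause was not tested.

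**Figure D5:**
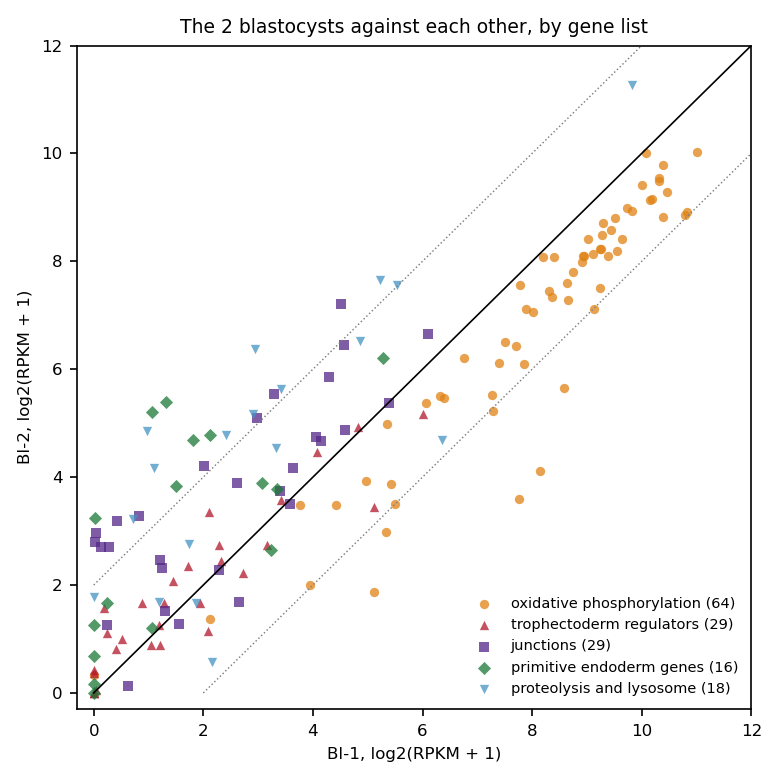
Levels in Bl-2 (vertical) against Bl-1 (horizontal), both as log2(RPKM + 1), for the tested genes of 5 lists. The solid line marks equal levels and the dotted lines a difference of 2 on the log2(RPKM + 1) scale. Oxidative phosphorylation genes lie below the solid line and most primitive endoderm, junction and lysosomal genes above it. Trophectoderm regulators lie between the dotted lines.

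Oxidative phosphorylation genes had the largest share of calls. Of 64 tested genes of the respiratory chain and ATP synthase, 41 were called higher in blastocysts and 0 lower (55 and 0 at an unadjusted p under 0.05), 64.1% beside 12.02% of all features, with a median log2 change of 2.40. The count was 35 without Mo-2, 27 after median-of-ratios scaling and 10 without Bl-1. NDUFA8, a complex I subunit, had 237 and 138 RPKM in blastocysts, against 16.6, 12.3 and 10.9 RPKM in morulae, and NDUFB8 had 489.9 and 273 RPKM, against 20.3, 5.04 and 38.4 RPKM. NDUFS8 differed between the blastocysts, at 216 and 11.03 RPKM, against 0.321, 0 and 0.930 RPKM in morulae. The list's summed level was 34026 and 16759 RPKM in blastocysts, against 7906, 3176 and 10819 RPKM in morulae, and the sum over all features was highest in Bl-1 as well. How far that library's composition sets these calls was not tested.

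Lysosomal and proteolysis genes were called higher in 11 of 18 and lower in 0 (15 and 0 at an unadjusted p under 0.05), 61.1% higher beside 12.02% of all features, with a median log2 change of 1.81, and 6 of 18 were higher without Bl-2. CSTB, a cathepsin inhibitor, had 80.5 and 24.7 RPKM in blastocysts, against 2.42, 0 and 1.75 RPKM in morulae. CTSB, cathepsin B, had 6.64 and 82.2 RPKM in blastocysts, against 1.04, 1.37 and 1.77 RPKM in morulae, and lost its call without Bl-2 (adjusted p = 0.14). By contrast with these lists, the cytosolic ribosomal protein genes gave 2 higher and 0 lower calls among 74 tested. The shares were 2.7% and 0%, beside 12.02% and 2.12% of all features. At an unadjusted p under 0.05 in limma, 13 were higher and 0 lower. Their median log2 change was 0.83, and 0.22 without Mo-2.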

How the data were processed

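Members and gene lists were chosen with earlier results of these data known. The deposited RPKM table, made by the authors, has 22 library columns, each matched to a sample by its title. Per the submitters' processing notes the build is Mmul 8.0.1; the file names none, so positions are printed as deposited. Aligner, counter and annotation release are not given in the sources used here. Per the labels' protocols, cDNA amplification used a SMARTer ultra low input kit and library construction a TruSeq DNA kit.

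Of the entries, 28595 are Ensembl identifiers, of which 15556 took their symbol from the name table given, 6832 from the file and 6207 had none. A further 6873 start with IMMRNTR; their file names, printed with the identifier, matched the RefSeq chromosome in 46.6% of cases compared, against 97.5% for Ensembl identifiers. Where a symbol had several entries, the one with the highest mean was used. Reads per library were inferred from short features at low values, where a value is a whole multiple of what 1 read adds: 468 of 510 (91.8%) lay within 0.05 of a whole number, giving 5.575 to 21.435 M reads per library. RPKM steps depend on feature length, so no counts were recovered.

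Values were tested as log2(RPKM + 1), which understates changes of low genes, for features with at least 1 RPKM in 2 libraries. limma 3.58.1 in R 4.3.3 was fitted with 1 mean per stage over 22 libraries (13 residual degrees of freedom, trend and robust settings), for Bl minus Mo, with Benjamini-Hochberg adjustment over 14312 features; features under 0.05 after adjustment (2-sided) were called. The script was tested on simulated data. Exact zeros can be failed estimates and are given as listed. Named genes are the 12 largest called changes per direction (Ensembl entries with a symbol, stages not overlapping, at least 10 RPKM in the higher stage), up to 6 called members per list by adjusted p, a panel of 48 genes of which 45 were matched, and the 5 genes most correlated with each marker; members named beyond these, to complete a count or describe a list, were chosen after their values were seen. A few genes that this rule takes are not reported here. Alternatives were a pseudocount of 0.1, no filter or at least 5 RPKM, median-of-ratios scaling, fits of fewer stages, sample quality weights, the replicate number as a block, plain limma moderation and each library left out. Python 3.11.15, numpy 2.4.6, pandas 2.3.3 and matplotlib 3.10.9 were used.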

Additional observations from a re-analysis of the deposited data

How the results depend on the processing

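Calls rested on a spread shared over 9 stages. With morulae and blastocysts alone (3 residual degrees of freedom) 9 features were called higher and 0 lower by limma (1571 and 179 at an unadjusted p under 0.05), 3 trophectoderm and epithelial genes were called higher (43 unadjusted) and 0 activation genes lower (4 unadjusted). Adding the 8-cell embryos gave 417 higher, 20 lower and 26 trophectoderm and epithelial genes. Morulae and blastocysts alone without Mo-2, chosen after seeing the data, gave 512 higher and 136 lower calls. Median-of-ratios scaling gave 660 lower calls, or 891 with Mo-2 left out as well, also chosen after seeing the data. At least 5 RPKM in 2 libraries left 33 trophectoderm and epithelial genes higher, and quality weights, which gave Mo-2 a weight of 0.129, called 8 activation genes lower. Leaving out each library in turn gave 1050 to 1921 higher and 99 to 443 lower features, with the fewest of both without Bl-1, 43 to 53 trophectoderm and epithelial genes higher, and 3 to 8 activation genes lower, with 8 without Mo-2. The cause of these changes was not tested. No label says that replicate numbers pair embryos, and the deviations of same-numbered embryos correlated at 0.034 and 0.12; the replicate block gave 1744 higher and 281 lower features. Of 136 called genes that the naming rule took, 100 kept the call under every library left out, 28 lost it without Bl-1, 16 without Bl-2, 9 without Mo-2, 16 with a pseudocount of 0.1, 9 after scaling, 126 with morulae and blastocysts alone, 54 in that fit without Mo-2 and 66 with the 8-cell embryos, morulae and blastocysts; none of them changed sign under these settings.

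With 2 blastocysts, differences between embryos of that stage are known from 1 pair. Whole-embryo RPKM values are relative to the library, so a rise of abundant short transcripts lowers the others, and changes under about 1 RPKM were at the limit of detection.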

Other observations

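The counts of these lists stand beside 12.02% of all features called higher and 2.12% called lower. Of 15 tested genes of cholesterol synthesis, 6 were called higher and 1 lower in blastocysts. FDFT1, which commits farnesyl units to sterols, had 120.3 and 70.4 RPKM in blastocysts, against 3.30, 0.219 and 4.52 RPKM in morulae, with a log2 change of 4.92 ± 0.60, and ACAT2 had 71.8 and 38.2 RPKM, against 1.16, 0.141 and 1.37 RPKM. Both were separated between the stages. Of 18 tested glycolysis genes, 6 were higher and 2 lower, and 3 were higher without Bl-1: TPI1 had 43.1 and 72.4 RPKM in blastocysts, against 2.76, 0.031 and 4.93 RPKM in morulae, and PGK1 had 255 and 144 RPKM, against 11.9, 1.66 and 30.0 RPKM. Of 58 tested ribosome biogenesis genes, 1 was higher and 5 lower, and 13 were lower after scaling. The 6 calls before scaling were each lost without Bl-1 (adjusted p = 0.061 to 0.43).

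Of 35 tested cell cycle genes, 5 were higher, 14.3%, and 2 lower, with 1 higher without Bl-1 and 3 without Mo-2. RRM1, a subunit of the enzyme that makes DNA precursors, had 41.4 and 69.6 RPKM in blastocysts, against 342, 291 and 388 RPKM in morulae, a log2 change of -2.63 ± 0.44. Of 18 tested genes of DNA methylation and imprints, 6 were higher and 2 lower; TET2, a 5-methylcytosine oxidase, had 10.1 and 54.0 RPKM in blastocysts, against 0.441, 0 and 0.041 RPKM in morulae. Of 22 tested stress genes, 6 were higher and 1 lower, and 3 were higher without Bl-1; HSP90B1, a chaperone of the endoplasmic reticulum, had 32.2 and 244 RPKM in blastocysts, against 4.42, 0.094 and 2.17 RPKM in morulae. Of 12 tested interferon-induced genes, 3 were higher and 0 lower (4 and 0 at an unadjusted p under 0.05); IFITM1 had 2273 and 823 RPKM in blastocysts, against 170.3, 18.97 and 115 RPKM in morulae. NR5A2, listed with the granulosa markers and also a gene of early embryos, was the 1 call among the lists of other cell types when Mo-2 was kept, with 0.348 and 2.63 RPKM in blastocysts, against 9.13, 9.09 and 2.75 RPKM in morulae, and it lost the call without Bl-1 (adjusted p = 0.29).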
